A study of Mus musculus with 6 samples.

Results

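The machinery of MHC class I presentation was followed here through 10 genes, namely H2-K1, H2-D1, B2m, Tap1, Tap2, Tapbp, Psmb8, Psmb9, Nlrc5 and Erap1. They were chosen by name for their known roles in the pathway, and each had 1 row among the 24341 rows of the FPKM table. RNA was measured in alveolar macrophages (AMs), the macrophages of the lung airspaces, which were recovered by bronchoalveolar lavage (BAL) from female C57BL/6 mice aged 6 to 10 weeks. The mice were CD44+/+ or CD44-/- and otherwise untreated, and each genotype had 3 samples, every one a pool of several mice. CD44 is a receptor for the glycosaminoglycan hyaluronan, and the labels name no promoter or cell type that would restrict its loss to AMs. The lavage cells were not sorted before RNA was extracted, only freed of red blood cells by lysis. The comparison asked how the transcripts of class I presentation differed between AMs with and without CD44.

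MHC class I molecules display short peptides from proteins made inside the cell, so that CD8+ T cells and NK cells can inspect it. Proteins are cut by the proteasome, whose catalytic subunits can be replaced by the inducible immunoproteasome subunits, and the peptides are pumped into the endoplasmic reticulum by the TAP transporter. There an aminopeptidase trims them, and the loading complex fits them into a heavy chain held by β2-microglobulin. Interferons raise the whole set of genes, and the activator NLRC5 acts at the promoters of several of them. Macrophages carry class I on their surface, as nearly all nucleated cells do, and unlike class II it is not restricted to professional antigen presenting cells.

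The promoters of the surface molecule's own genes are shown first, because they hold the short control motifs through which the pathway's genes are commonly driven together. RefSeq start sites gave a window of 250 bases before to 50 bases after the start for 8 of the 10 genes (GRCm38.p6, all but Tap2 and Nlrc5). The 200 bases before the start of H2-K1 (chr17:34000348-34000547, minus strand) and of B2m (chr2:122147487-122147686, plus strand) read 5′ to 3′ as follows. Capitals mark, in order, a kappaB motif, the core of the CRE, TGACG, and the CCAAT box, here on the opposite strand as ATTGG. In B2m they are preceded by an interferon-stimulated response element (ISRE) spelled GAAA, any 2 bases and GAAA again.
H2-K1 promoter: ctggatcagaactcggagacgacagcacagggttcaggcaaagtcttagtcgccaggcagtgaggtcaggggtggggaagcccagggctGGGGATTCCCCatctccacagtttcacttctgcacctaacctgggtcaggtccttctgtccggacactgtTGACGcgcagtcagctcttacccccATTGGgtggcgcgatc
B2m promoter: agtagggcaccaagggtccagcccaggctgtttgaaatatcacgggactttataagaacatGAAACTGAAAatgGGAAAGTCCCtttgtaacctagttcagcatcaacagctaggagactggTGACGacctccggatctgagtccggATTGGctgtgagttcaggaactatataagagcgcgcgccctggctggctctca

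The heavy chain promoters resembled each other closely. The best local alignment of the 250 bases before the starts of H2-K1 and H2-D1 had 161 identical bases in 177 columns (91.0%). Below are 30 bases around the kappaB motif, shown in capitals, at chr17:34000434-34000463 on the minus strand for H2-K1 and at chr17:35262918-35262947 on the plus strand for H2-D1.
H2-K1 kappaB: gggctGGGGATTCCCCatctccacagtttc
H2-D1 kappaB: gggctGGGGATTCCCCatctcctcagtttc

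Searched on both strands, the kappaB motif lay in the windows of 3 of the 8 genes (B2m, H2-D1 and H2-K1), against 8.46% of 32851 mouse promoters. The ISRE, in the exact spelling given above, was found in 2 of 8 (B2m and Erap1, background 3.44%). TGACG was found in 5 of 8 (B2m, H2-D1, H2-K1, Psmb9 and Tap1, background 20.8%) and CCAAT in 6 of 8 (background 37.4%). Interferon response sequences that depart from that spelling were not searched for, so a window without a match may still hold one. These matches describe letters in a window, and binding was not measured in these samples.

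On chromosome 17, 7 of the 10 genes lie in the mouse MHC (positions in mm10 from GENCODE). Tapbp (33915899-33929292, plus strand) and H2-K1 (33996017-34000347, minus strand) come first. Psmb9 (34181987-34187764, minus strand), Tap1 (34187553-34197225, plus strand), Psmb8 (34197721-34201454, plus strand) and Tap2 (34203527-34216321, plus strand) follow within 34.3 kb. H2-D1 (35262730-35267499, plus strand) ends 1.27 Mb beyond the first base of H2-K1. The other 3 are dispersed, with Nlrc5 at chr8:94434356-94527272, Erap1 at chr13:74639568-74693201 and B2m at chr2:122147686-122153083, all on the plus strand. B2m shares its chromosome with Cd44 and starts 19.2 Mb beyond the end of that gene. Its whole span of 5398 bases lies within that of Patl2 on the opposite strand, and Tapbp, Psmb8, Tap2, Erap1 and Nlrc5 each overlap another annotated gene on the opposite strand in part.

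Across the samples, the class I machinery ran at steady and widely different levels. B2m had a mean of 1893 ± 47.3 FPKM (SD, n = 3 pools) in CD44+/+ AMs and ranked 15th among all genes by its mean over the samples, whereas Nlrc5 had 1.06 ± 0.0879 FPKM and ranked 10118th. FPKM counts fragments per length of transcript and per total of mapped fragments, so that levels of different genes can be set side by side. Of the 10 genes, 0 passed an adjusted p under 0.05 in limma, where 12 of the 10800 genes tested did (0.111%). At an unadjusted p under 0.05 the count was also 0 of 10, against 831 genes (7.69%), of which 513 were higher (4.75%) and 318 lower (2.94%) in CD44-/- AMs. The log2 differences, CD44-/- minus CD44+/+ on log2(FPKM + 0.1), were positive for 5 genes and negative for 5, with a median of 0.009 beside 0.013 for all genes tested. Because these are bulk samples, fewer cells of a type and less RNA per cell cannot be told apart.

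**Figure D1:**
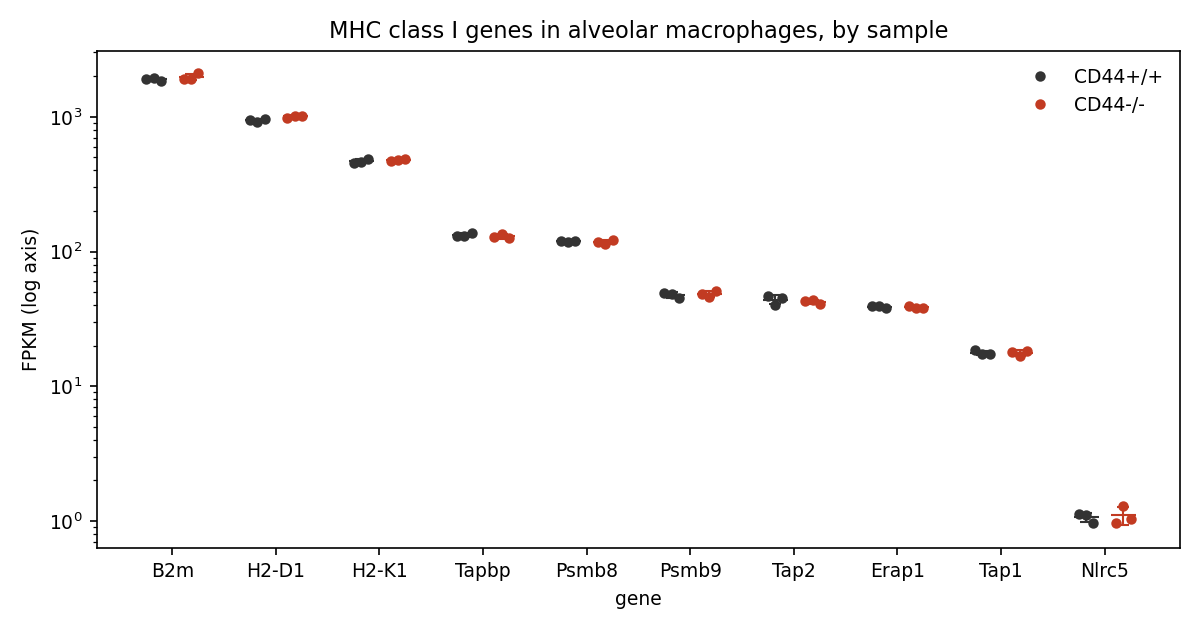
FPKM of the 10 class I genes in each sample, on a log axis, with the 3 CD44+/+ and 3 CD44-/- samples as points and the mean ± SD as a dash and bar. The genes span from about 1 FPKM (Nlrc5) to 2100 FPKM (B2m), and within each gene the genotypes lie close together.

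The libraries matched their labels at Cd44, which had 527 to 540 FPKM in CD44+/+ AMs and 51.4 to 54.7 FPKM in CD44-/- AMs. Sums of FPKM over all genes were 487901 to 504182, and the number of reads per sample is unknown, so no counting error is given. Correlations across genes were 0.9831 to 0.9895 for pairs of samples within a genotype and 0.9806 to 0.9912 for pairs across genotypes. Of 13 AM marker rows, 13 were above 1 FPKM in every sample. T and NK cell markers summed to 1.18 to 2.31 FPKM in CD44+/+ and 0.972 to 1.62 FPKM in CD44-/- samples (9 rows), and B cell markers to 0.152 to 0.597 and 0.171 to 0.233 FPKM (6 rows). Airway secretory cell transcripts were more abundant, at 856 to 1419 and 660.5 to 1156 FPKM (8 rows). Erythroid transcripts were 14.7 to 124 and 17.5 to 336 FPKM (7 rows), highest in CD44-/- replicate 2. Neutrophil markers summed to 62.6 to 102 and 74.7 to 84.9 FPKM (6 rows). Monocyte markers summed to 9.89 to 11.7 and 9.82 to 11.3 FPKM (4 rows). Eosinophil markers, with Epx and Prg2 at 0, summed to at most 0.0552 FPKM (4 rows). Alveolar type 2 cell markers summed to 90.7 to 106 and 93.9 to 168 FPKM (7 rows), highest in CD44-/- replicate 3. Of these 7 rows, Sftpb alone had no overlap between genotypes, at 1.26 to 2.13 and 2.32 to 6.53 FPKM (11.6% of all genes tested). Sftpc had 6.83 to 15.5 and 12.4 to 74.2 FPKM, with overlap, and 0 of the 7 rows passed the adjusted threshold. The part of these cell types in the values below was not tested.

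The surface molecule consists of a polymorphic heavy chain, encoded in this strain by the classical genes H2-K1 and H2-D1, and the invariant light chain encoded by B2m. H2-D1 had 943, 919 and 967 FPKM in CD44+/+ replicates 1 to 3 and 980, 1020 and 1020 FPKM in CD44-/- replicates 1 to 3. All CD44-/- samples lay above all CD44+/+ samples, which among the 10 genes occurred for H2-D1 alone. Groups without overlap were seen for 1256 of all genes tested (11.6%), 729 of them higher in CD44-/- AMs (6.75%) and 527 lower (4.88%), so that 1 of 10 was near the background. The means were 943 ± 24 and 1007 ± 23.1 FPKM, a log2 difference of 0.09 (SE 0.048, limma adjusted p = 0.727). The 95% interval of the fold change ran from 0.989 to 1.15.

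H2-K1 had 453, 464 and 486 FPKM in CD44+/+ AMs and 471, 475 and 482 FPKM in CD44-/- AMs. The highest and the lowest values were both CD44+/+ samples, and the CD44-/- samples lay between them. Its fold change was 1.02 (95% interval 0.945 to 1.1, limma adjusted p = 0.971). For B2m the values were 1910, 1930 and 1840 FPKM in CD44+/+ AMs and 1920, 1900 and 2100 FPKM in CD44-/- AMs. CD44-/- replicate 3 was the highest, and the other CD44-/- samples lay within the range of the CD44+/+ samples. The fold change of B2m was 1.04 (95% interval 0.949 to 1.14, limma adjusted p = 0.935).

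Balance between the chains was read from ratios within a sample. The light chain exceeded H2-D1 by 1.86 to 2.1-fold and H2-D1 exceeded H2-K1 by 1.98 to 2.15-fold in the 6 samples. Ratios given with a test were taken after 0.1 FPKM had been added to both genes. H2-K1 over H2-D1 was 0.48, 0.505 and 0.503 in CD44+/+ AMs and 0.481, 0.466 and 0.473 in CD44-/- AMs, with overlap at the lowest CD44+/+ sample. That difference was -0.07 on the log2 scale (SE 0.026, exact two-sided permutation p = 0.2, 0.8 after Benjamini-Hochberg adjustment over 8 ratios). With 3 against 3 samples the smallest exact p is 0.1. H2-K1 over B2m was 0.247 ± 0.0147 and 0.242 ± 0.0107, and H2-D1 over B2m was 0.499 ± 0.025 and 0.511 ± 0.0256 (exact permutation p = 0.7 and 0.6).

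Reads of the heavy chains are partly shared with close relatives. Of the 42-base windows in the longest coding transcript, 42 bases being the read length, 19.3% in H2-D1 and 13.8% in H2-K1 also occurred in a transcript of another gene. The heavy chains shared 167 windows with each other, which was 10.6% of those of H2-K1, and H2-Q1 held the most of those of H2-D1 (176). How Cufflinks divided such reads is not stated, so the separate levels of H2-K1 and H2-D1 are uncertain to that extent. B2m, Psmb8, Psmb9 and Nlrc5 shared 0 windows, and Tapbp, Tap1, Tap2 and Erap1 at most 2.31%.

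TAP, the peptide transporter, is a dimer of TAP1 and TAP2, and tapasin, the product of Tapbp, bridges it to the empty class I molecule. Tap1 had 18.5, 17.3 and 17.5 FPKM in CD44+/+ AMs and 18.1, 16.8 and 18.3 FPKM in CD44-/- AMs. Tap2 stood higher, at 46.6, 40.2 and 45.1 FPKM and 42.6, 43.7 and 41.0 FPKM. The genotypes overlapped for both transcripts. Fold changes were 0.995 for Tap1 (95% interval 0.901 to 1.1, limma adjusted p = 0.992) and 0.967 for Tap2 (0.871 to 1.07, limma adjusted p = 0.966). Tap1 amounted to 0.407 ± 0.0222 of Tap2 in CD44+/+ AMs and 0.419 ± 0.0318 in CD44-/- AMs (exact permutation p = 0.8).

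Tapbp had 131, 129.5 and 137 FPKM in CD44+/+ AMs and 129, 135 and 125 FPKM in CD44-/- AMs, again with overlap (fold change 0.977, 95% interval 0.902 to 1.06, limma adjusted p = 0.968). Its annotated span overlaps that of Zbtb22 on the same strand over 3422 bases and that of the antisense gene Gm19412 on the opposite strand over 1207 bases, and how reads were divided there is not stated. The other genes of peptide generation and loading were taken as a list of 17, all of them tested. None of the 17 passed the adjusted threshold, and 0 had an unadjusted p under 0.05, against 7.69% of all genes tested. Their median log2 difference was -0.02, with 7 positive and 10 negative.

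The folding chaperones among them were abundant, calreticulin (Calr) at a mean of 710.5 FPKM over the samples and the thiol oxidoreductase Pdia3 at 338 FPKM. Psme1, which encodes a subunit of the PA28 proteasome activator, was the sole gene of this list whose groups did not overlap (11.6% of all genes tested). It had 135, 134 and 135 FPKM in CD44+/+ AMs and 118, 130 and 130 FPKM in CD44-/- AMs, a log2 difference of -0.10 (limma adjusted p = 0.761). Tapbpl, a tapasin-related peptide editor, and Sec61b, a subunit of the translocation channel of the endoplasmic reticulum, differed by -0.12 and 0.10 on the log2 scale (limma adjusted p = 0.83 and 0.774).

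**Figure D2:**
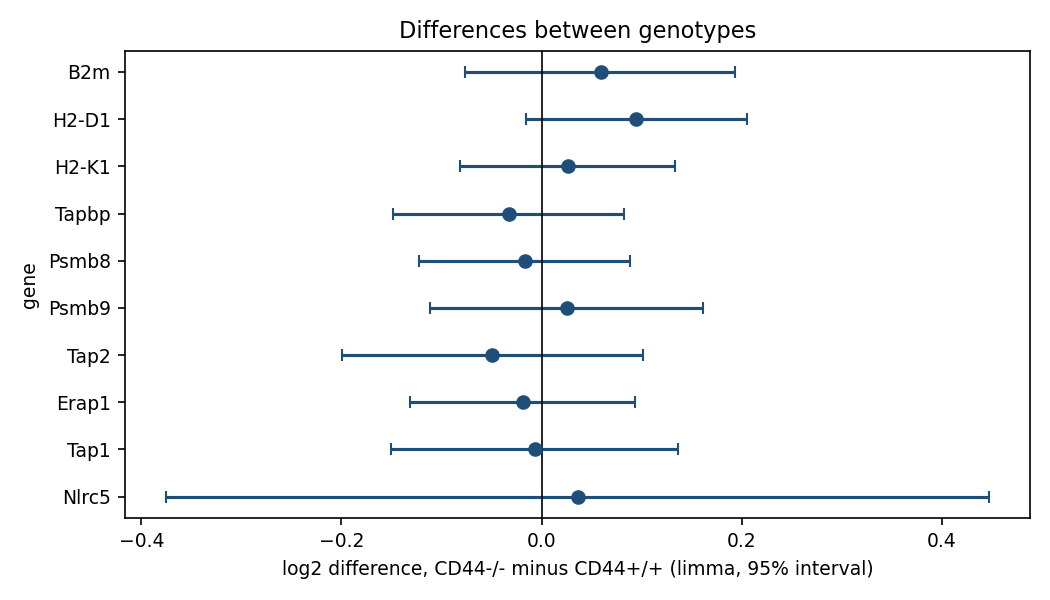
Log2 difference of CD44-/- minus CD44+/+ AMs for each of the 10 genes on log2(FPKM + 0.1), with the 95% interval from limma as a bar. Every interval includes 0, and Nlrc5 has the widest, from -0.38 to 0.45.

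Psmb8 and Psmb9 encode the immunoproteasome subunits LMP7 and LMP2, which take the places of the constitutive subunits encoded by Psmb5 and Psmb6. Psmb8 had 119, 118 and 120 FPKM in CD44+/+ AMs and 117, 114 and 122 FPKM in CD44-/- AMs. CD44-/- samples held both its lowest and its highest value. Its fold change was 0.988 (95% interval 0.919 to 1.06, limma adjusted p = 0.983). Psmb9 had 49.1, 48.7 and 45.0 FPKM and 48.7, 45.9 and 50.7 FPKM, with overlap and a fold change of 1.02 (0.926 to 1.12, limma adjusted p = 0.977). Psmb9 and Tap1 share 212 bases on opposite strands, and the library kit marked strand, but whether strand was used in counting is not stated.

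Setting each inducible subunit against the subunit it replaces gives the make-up of the catalytic core at the level of transcripts. Psmb8 over Psmb5 was 1.15 ± 0.0485 in CD44+/+ AMs and 1.18 ± 0.0127 in CD44-/- AMs (exact permutation p = 0.4). The inducible transcript thus exceeded its constitutive counterpart on the FPKM scale in both genotypes, although 65.0% of the windows of Psmb5 also occur in transcripts of 4 other genes, most of them (466 of 858 windows) in Gm3375. Psmb9 over Psmb6 was 0.426 ± 0.047 and 0.421 ± 0.0211 (exact permutation p = 1.0).

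Psmb10, the third inducible subunit and no member of the 10, had 74.1, 82.6 and 75.2 FPKM in CD44+/+ AMs and 72.5, 75.1 and 74.3 FPKM in CD44-/- AMs. Psmb7, which it replaces, had 122, 118 and 118 FPKM and 126, 126 and 128 FPKM. Psmb10 over Psmb7 was 0.608, 0.7 and 0.638 in CD44+/+ AMs and 0.576, 0.596 and 0.581 in CD44-/- AMs. All 3 CD44-/- samples lay below all CD44+/+ samples, with a log2 difference of -0.15 (SE 0.062), at the smallest exact permutation p possible (0.1) and 0.8 after adjustment over 8 ratios. Without CD44+/+ replicate 2 the log2 difference was -0.091. Neither gene passed on its own (limma adjusted p = 0.919 for Psmb10 and 0.714 for Psmb7). The constitutive subunits and the rest of the proteasome core, 15 genes, had 0 calls and a median of -0.03 on the log2 scale. Of these 15 genes, 0 had an unadjusted p under 0.05, against 7.69% of all genes tested.

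**Figure D3:**
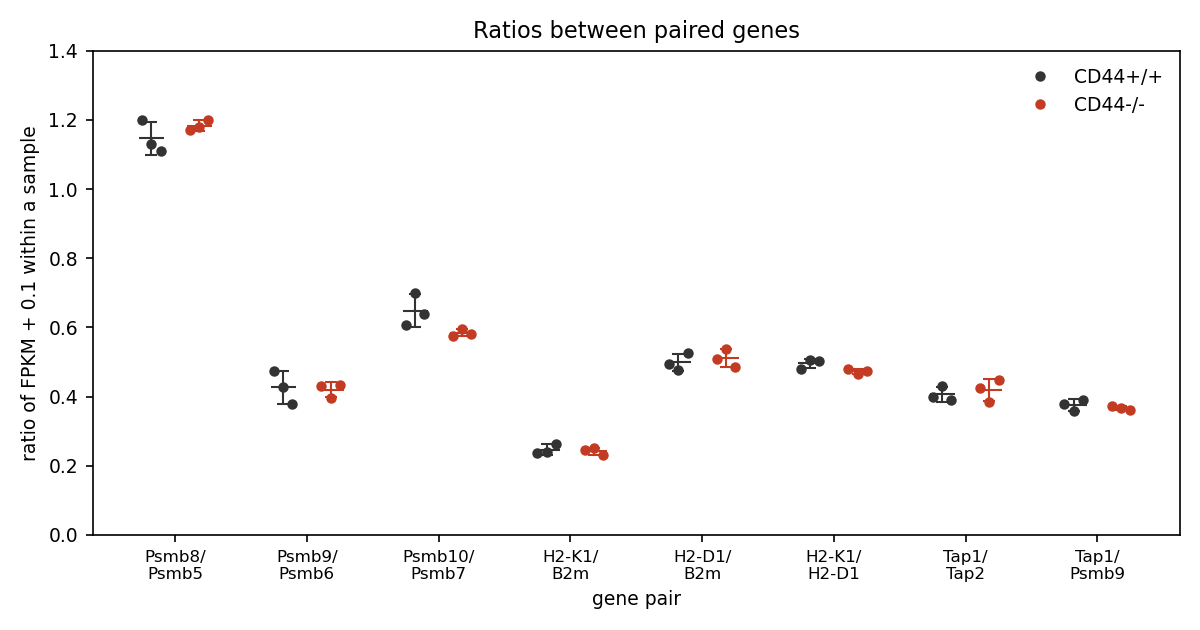
Ratios of FPKM + 0.1 within each sample for 8 pairs of genes, CD44+/+ and CD44-/- samples as points with mean ± SD. Psmb10 over Psmb7 is the single ratio whose genotypes do not overlap, at 0.649 ± 0.0472 and 0.584 ± 0.0107.

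Erap1 encodes the aminopeptidase that trims peptides in the endoplasmic reticulum to the length that class I holds. It had 39.7, 39.1 and 38.3 FPKM in CD44+/+ AMs and 39.7, 38.0 and 37.9 FPKM in CD44-/- AMs, with the highest value shared by both genotypes. The fold change was 0.987 (95% interval 0.913 to 1.07, limma adjusted p = 0.982). Its spread within a genotype, 0.032 on the log2 scale, was the smallest of the 10.

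Nlrc5 encodes the NOD-like receptor family protein that acts as the class I transactivator. It had 1.13, 1.1 and 0.965 FPKM in CD44+/+ AMs and 0.969, 1.29 and 1.04 FPKM in CD44-/- AMs. CD44-/- replicate 2 was the highest, and the genotypes overlapped. The fold change was 1.03, but at this low level the 95% interval ran from 0.771 to 1.36 (limma adjusted p = 0.989). For the other 9 genes the widest bounds of any interval were 0.871 and 1.15.

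Partners of NLRC5 and the interferon signal to these promoters were followed in a list of 23 genes, of which 0 passed the adjusted threshold. Irf1, a transcription factor acting at the ISRE, had 27.9, 21.8 and 25.9 FPKM in CD44+/+ AMs and 28.3, 19.6 and 23.5 FPKM in CD44-/- AMs, with overlap between the genotypes. At an unadjusted p under 0.05 stood 2 of the 23 genes, a share near the 7.69% of all genes tested. Both had all CD44-/- samples above the CD44+/+ samples, as did 6.75% of all genes tested.

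The first was Socs1, a feedback inhibitor of interferon signaling, with 0.877, 0.58 and 0.229 FPKM in CD44+/+ AMs and 1.34, 1.66 and 0.928 FPKM in CD44-/- AMs. Its log2 difference was 1.19 (SE 0.396, limma adjusted p = 0.486). The other was Rfxap, a subunit of the RFX complex with which NLRC5 works, at 5.53, 4.15 and 3.62 FPKM and 6.13, 5.59 and 5.56 FPKM, a log2 difference of 0.39 (SE 0.146, limma adjusted p = 0.56). Its partners Rfx5 and Rfxank differed by -0.05 and 0.03 on that scale. Rela, a subunit of NF-kappaB, was lower in each CD44-/- sample, at 38.3, 36.6 and 36.4 FPKM against 40.2, 40.0 and 39.4 FPKM (log2 difference -0.10, limma adjusted p = 0.683). Nfya, a subunit of the factor that binds the CCAAT box, was also lower without overlap (log2 difference -0.07, limma adjusted p = 0.872). Rela and Nfya were 2 of the 23 genes, and 4.88% of all genes tested were lower without overlap.

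Among 18 interferon-stimulated genes, 16 were tested and 0 passed the adjusted threshold, with a median log2 difference of 0.03 and with 9 positive and 7 negative. At an unadjusted p under 0.05 stood 2, Rsad2 and the GTPase gene Gbp3, both higher in CD44-/- AMs (4.75% of all genes tested). Of the 16 tested genes, 3 had no overlap and higher values in CD44-/- AMs, namely Rsad2, Gbp3 and Irgm1 (6.75% of all genes tested). Oasl2 was the 1 tested gene with no overlap and lower values (4.88%). The smallest limma adjusted p in that list was 0.598, for Rsad2, an antiviral enzyme (log2 difference 0.64). Rsad2 and Oasl2 averaged 0.811 and 0.889 FPKM over the samples, near the minimum of 0.5 FPKM for testing. Gbp3 and Irgm1 averaged 3.19 and 11.9 FPKM.

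Non-classical and class I-like heavy chains, which present other ligands or serve in transport, were represented by 21 genes. Of the 16 that were tested, 0 passed the adjusted threshold, 2 had an unadjusted p under 0.05, both higher in CD44-/- AMs (4.75% of all genes tested), and the median log2 difference was 0.04. Those 2 were H2-T24 and Mr1. Mr1 presents vitamin B metabolites to MAIT cells and had 21.2, 21.0 and 21.0 FPKM in CD44+/+ AMs and 22.4, 24.5 and 23.4 FPKM in CD44-/- AMs. Its log2 difference was 0.15 (SE 0.056, limma adjusted p = 0.551). H2-T24 had 4.39, 3.67 and 4.49 FPKM and 5.5, 5.22 and 4.75 FPKM, a log2 difference of 0.30 (SE 0.109, limma adjusted p = 0.538).

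H2-T23, which encodes Qa-1, a ligand of NKG2 receptors, had 102, 99.6 and 107 FPKM in CD44+/+ AMs and 111, 108 and 109 FPKM in CD44-/- AMs (log2 difference 0.09, limma adjusted p = 0.758). These 3 of the 16 genes had no overlap between genotypes, with the CD44-/- samples above (6.75% of all genes tested). Cd1d1, which presents lipids to NKT cells, and Fcgrt, the heavy chain of the neonatal Fc receptor, pair with the light chain too and had log2 differences of -0.13 and -0.11 (limma adjusted p = 0.752 and 0.822).

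**Figure D4:**
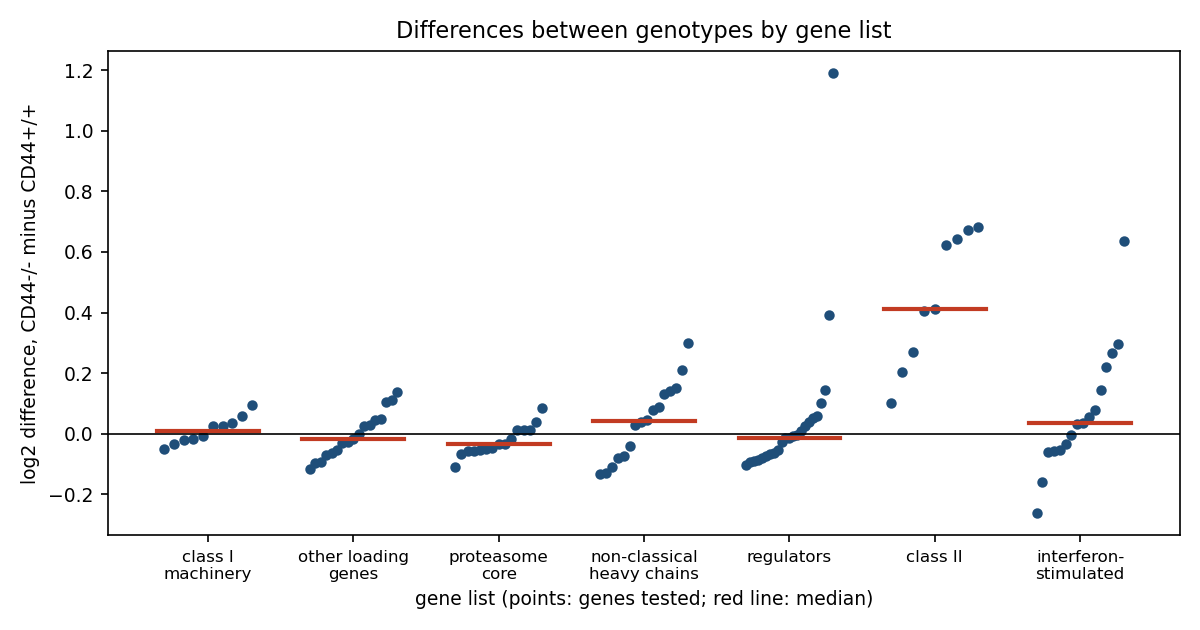
Log2 differences of CD44-/- minus CD44+/+ AMs for the tested genes of each list, one point per gene, with the median as a red line. The 10 class I genes lie between -0.05 and 0.09, and the class II genes lie between 0.10 and 0.68.

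In size, the differences of the 10 genes had a median of 0.03 on the log2 scale without regard to sign, beside 0.07 for all genes tested. All 10 differed by at most 0.1, as did 7135 of the 10800 genes tested (66.1%). The spread between samples of a genotype, pooled over genotypes, had a median of 0.056 for the 10 genes and 0.105 for all genes tested, and it was 0.16 for Nlrc5. The order of levels was B2m, H2-D1, H2-K1, Tapbp, Psmb8, Psmb9, Tap2, Erap1, Tap1 and Nlrc5. Neighbours in this order had separate ranges over the 6 samples except Psmb9 and Tap2, whose ratio ran from 0.998 to 1.24. Together the 10 genes made up 0.744%, 0.749% and 0.751% of the summed FPKM in CD44+/+ AMs and 0.751%, 0.777% and 0.793% in CD44-/- AMs, so that the genotypes met at 0.751%. H2-K1, H2-D1 and B2m accounted for 0.663%, 0.67% and 0.669% in CD44+/+ AMs and 0.672%, 0.696% and 0.714% in CD44-/- AMs. That share was higher in every CD44-/- sample and is given as a description with no test, since H2-D1, which had no overlap on its own, is part of the sum.

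After each gene was centred on its mean over the 6 samples, the mean of the 10 genes lay between -0.02 and 0.02 on the log2 scale in every sample. The mean of H2-K1, H2-D1 and B2m alone was -0.041, -0.036 and -0.013 in CD44+/+ AMs and -0.001, 0.018 and 0.073 in CD44-/- AMs. These groups did not overlap, the CD44-/- samples being higher, and the values are given as a description with no test. Pearson correlations of the 45 pairs over the 6 samples, described without a test, had a median of -0.069, and 19 were above 0. They ranged from -0.975 for Tapbp and Psmb9 to 0.815 for B2m and Psmb9. H2-D1 and H2-K1, which share reads, had 0.623. All these correlations rest on 6 samples that share libraries and normalization.

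Class II genes, which serve peptides taken up from outside the cell, were the contrast within the same samples. The invariant chain Cd74 had 646, 552 and 506 FPKM in CD44+/+ AMs and 622, 1187 and 927 FPKM in CD44-/- AMs, and H2-Aa had 193, 154 and 142 FPKM and 176, 364 and 266 FPKM. CD44-/- replicates 2 and 3 were above all CD44+/+ samples, and CD44-/- replicate 1 was among them. Of 11 class II genes 9 were tested, 0 passed the adjusted threshold and 6 had an unadjusted p under 0.05, all higher in CD44-/- AMs (4.75% of all genes tested). Of these, Cd74, H2-Aa, H2-Ab1 and H2-Eb1 moved as a unit, with correlations of at least 0.994 over the 6 samples, and do not count as separate observations. From the lowest to the highest of the 6 samples, these 4 genes spanned 1.23 to 1.36 each on the log2 scale, and the 10 class I genes spanned 0.067 (Erap1) to 0.384 (Nlrc5) each.

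A further 3 ratios across the classes were added after the values had been seen. H2-Aa over H2-K1 was 0.35 ± 0.0687 in CD44+/+ AMs and 0.564 ± 0.197 in CD44-/- AMs (log2 difference 0.65, SE 0.339), and Cd74 over B2m was 0.3 ± 0.0338 and 0.463 ± 0.151 (log2 difference 0.58, SE 0.288). The exact permutation p was 0.2 for each, and 0.3 after adjustment over the 3. Ciita, the class II transactivator and a relative of Nlrc5, gave a ratio to Nlrc5, on FPKM + 0.1, of 2.29 ± 0.272 and 2.99 ± 0.61 (exact permutation p = 0.3, also 0.3 adjusted). Dendritic cell markers summed to 8.38, 4.38 and 10.4 FPKM in CD44+/+ and 15.1, 7.41 and 6.19 FPKM in CD44-/- samples (7 rows). The part of other cell types in the class II values was not tested.

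**Figure D5:**
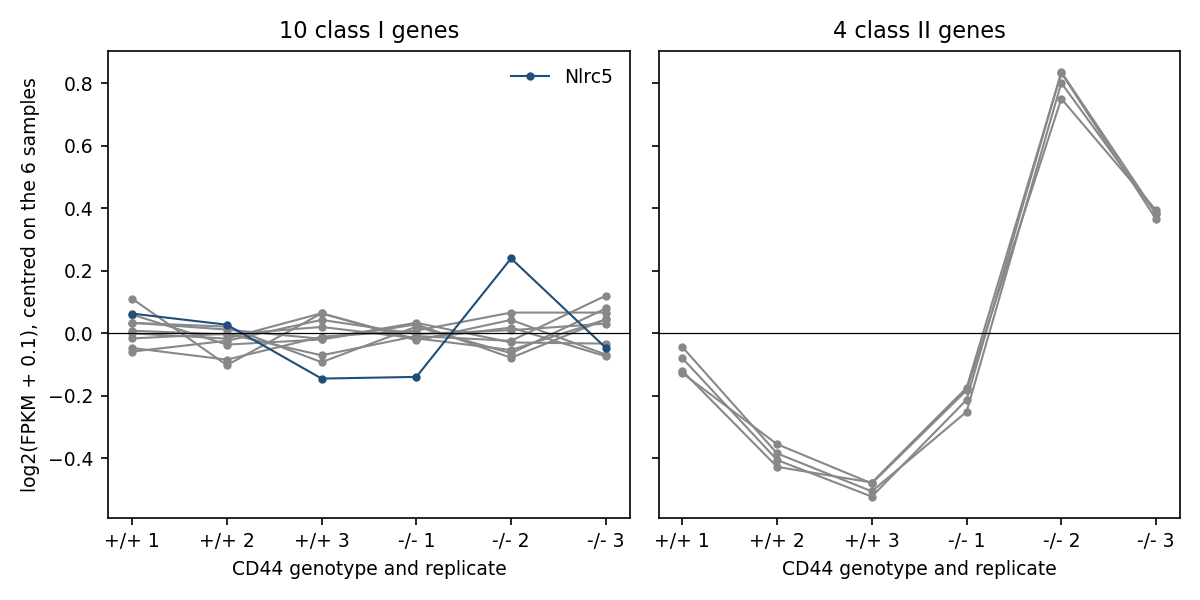
Centred log2 values of class I and class II genes in each sample, where 0 is the mean of a gene over the 6 samples and lines join values of the same gene or list without implying an order of samples. Class II genes reach their highest values in CD44-/- replicates 2 and 3, and no class I gene spans more than 0.384 on this scale, where each class II gene shown spans at least 1.23.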

How the data were processed

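RNA of lavage AMs was sequenced by the authors from 3 CD44+/+ and 3 CD44-/- samples, pools of 4, 2 or 2 mice that are not tied to replicate numbers, so the error is the spread between pools. The authors aligned reads to mm10 with STAR and deposited Cufflinks FPKM values, which are normalized for transcript length and depth. The deposited table also holds p-values, q-values and fold changes from Cuffdiff and means per genotype, which were not used. Rows were matched by gene identifier, since the separate columns of name and position follow another order (0 rows match). Of 24341 rows, 1 lacked a value and was left out, and 101 identifiers hold several names. Genes were kept if their FPKM averaged 0.5 or more (10800 genes), and limma 3.58.1 in R 4.3.3 (lmFit and trended eBayes) was run on log2(FPKM + 0.1). Its two-sided p-values were adjusted by Benjamini-Hochberg over the 10800 genes, with a threshold of 0.05. A fold change on this scale is understated for genes of low level. Ratios, after 0.1 FPKM had been added to both genes, were compared by exact permutation over samples.

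Members and lists were chosen with earlier results of these data known. Named in the text were all members, up to 6 genes with the smallest p in each other list, the counterparts Psmb5, Psmb6, Psmb7 and Psmb10, and Cd44. Other genes named from the lists (Calr, Pdia3, Irf1, Rfx5, Rfxank, Ciita) were chosen for their role after their values had been seen. Values of some single genes are not reported here. Deviations of same-numbered samples correlated at 0.212, 0.132 and 0.211, and the numbers come from the sample titles, so a fit with the replicate number as a block was an alternative. The others were pseudocounts of 1 and 0.01, a minimum of 1 FPKM, no filter, median-ratio and quantile scaling, eBayes without trend or robust, and leaving out each sample. Positions and transcripts were from GENCODE vM21, promoters from RefSeq (GRCm38.p6), read with Python 3.11.15 and Biopython 1.88.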

Additional observations from a re-analysis of the deposited data

How the results depend on the processing

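No class I gene passed the adjusted threshold in any of 15 alternatives, and the smallest adjusted p was 0.523 (limma, H2-D1 without CD44+/+ replicate 1). The log2 difference of H2-D1 stayed between 0.056 and 0.114. B2m, H2-D1, H2-K1, Tapbp, Tap2 and Erap1 kept their sign in all 15, whereas the sign turned in 8 of the 150 values, each for 1 of the other 4 genes (Psmb8, Psmb9, Tap1 and Nlrc5). Leaving out each sample gave log2 differences of -0.043 to 0.006 for Psmb8, -0.015 to 0.063 for Psmb9, -0.031 to 0.032 for Tap1 and -0.075 to 0.115 for Nlrc5, which was also -0.045 under quantile scaling. The median of the 10 genes, 0.009, was -0.003 under median-ratio and -0.014 under quantile scaling, and -0.013 to 0.017 with a sample left out. The cause was not tested. Over all genes, 12 calls became 6 without CD44-/- replicate 2, 7 without CD44+/+ replicate 2, 22 without CD44-/- replicate 1 and 36 without CD44+/+ replicate 1. With the replicate block 9 genes were called, the adjusted p of H2-D1 was 0.632, and no call of a class I gene changed. Of 72 ratios recomputed, 0 moved by more than 1 SD, although Psmb10 over Psmb7 went from -0.148 to -0.091 without CD44+/+ replicate 2. With 3 pools per genotype and depth unknown, differences within the intervals given could not be detected.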

Other observations

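Outside all lists, the 5 genes whose values over the 6 samples were most like the centred mean of the 10 class I genes were Ak6 (Pearson r = 0.985), Rfc4 (0.985), Scrn3 (0.981), Cluap1 (0.98) and Champ1 (0.975). Candidates were 7772 genes averaging 5 FPKM or more, of which 59 had an r above 0.9. The class I mean itself ranged over 0.039 on the log2 scale, so the likeness describes small deviations in 6 samples and was not tested.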
